A study of Mus musculus with 4 samples.

Results

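PRC1.6 is a variant Polycomb complex, and its 10 genes Pcgf6, Rnf2, Ring1, Max, Mga, L3mbtl2, E2f6, Tfdp1, Rybp and Yaf2 are described here among the 20380 genes of a pooled knockout screen for activation of the endogenous retrovirus MERVL. The genes were chosen by name, with earlier results of these data known, and all 10 are in the authors' deposited table. The screen used the established mouse embryonic stem cell line E14 with a MERVL-tdTomato reporter that every cell of both groups carried and no treatment beyond the library. A lentiviral CRISPR-Cas9 library of 130209 guides was introduced over 24 h with 4 ug/mL polybrene, cells were selected with 2 ug/mL puromycin for 48 h, and reporter-positive cells were sorted at day 5. The 2 groups, MERVL-positive cells and total cells, have 2 libraries each, called sequencing repeats in their titles.

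Polycomb repressive complex 1 places ubiquitin on histone H2A and takes part in gene silencing. In its PRC1.6 form, a RING ubiquitin ligase pairs with PCGF6, and the sequence-specific subunits MGA with MAX and E2F6 with a DP protein bring the complex to E-box and E2F sites. In mouse embryonic stem cells the complex is known for holding germline and meiosis genes silent, and it has been reported as a repressor of the 2-cell-like state. That state is a rare condition of cultured embryonic stem cells in which MERVL, normally active in the 2-cell embryo, is transcribed. A knockout that raises the share of reporter-positive cells would leave its guides more frequent in the sorted cells than in the total.

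The values are 1 comparison per gene between the groups, with no value per library, so no gene has a spread between libraries and depth is unknown. The sign of the log2 fold change is taken to mean more guides in the sorted MERVL-positive cells when positive, a likely but unsettled direction: the study's title ties loss of Ints7 to active MERVL, and Ints7 is at rank 157 of 22510 for positive change in the authors' deposited table. The support is weak, since the authors' deposited table gives Ints7 a log2 fold change of 0.14 and an FDR (false discovery rate) of 0.931, and 3 of its 6 guides were up. If the authors set the groups the other way round, all directions given here reverse. About 500000 cells were sorted, which comes to 3.84 sorted cells per library guide and 23.0 per 6 guides. The table holds guide statistics and no expression, so neither the cell type nor the loss of any PRC1.6 protein could be checked. Guide sequences were not used here, and no sequence is printed.

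Rnf2 and Max had the highest values of the complex, 1.10 and 0.79 on the log2 scale, Rybp and L3mbtl2 followed at 0.43 and 0.40, and the other 6 genes lay between -0.43 and 0.16 in the authors' deposited table. No member had a MAGeCK FDR under 0.05 for either direction in the authors' deposited table. The share of genes under it across the screen was 0% for enrichment and 0.00491% for depletion. At an unadjusted p under 0.05, 2 of 10 members passed for enrichment, Rnf2 and Max, where 5.02% of all genes did, a share that comes to 0.502 genes in 10. The members were chosen with earlier results of these data known, so this difference was not tested. None of the 10 passed for depletion, where 5.07% of all genes did, and the authors' deposited table gives them no depletion p under 0.219. The median of the members was 0.13 and that of all genes -0.021. Of the members, 6 of 10 were above 0, against 48% of all genes, and 1 of 10, Rnf2, reached a log2 fold change of 1, as did 0.868% of all genes.

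**Figure D1:**
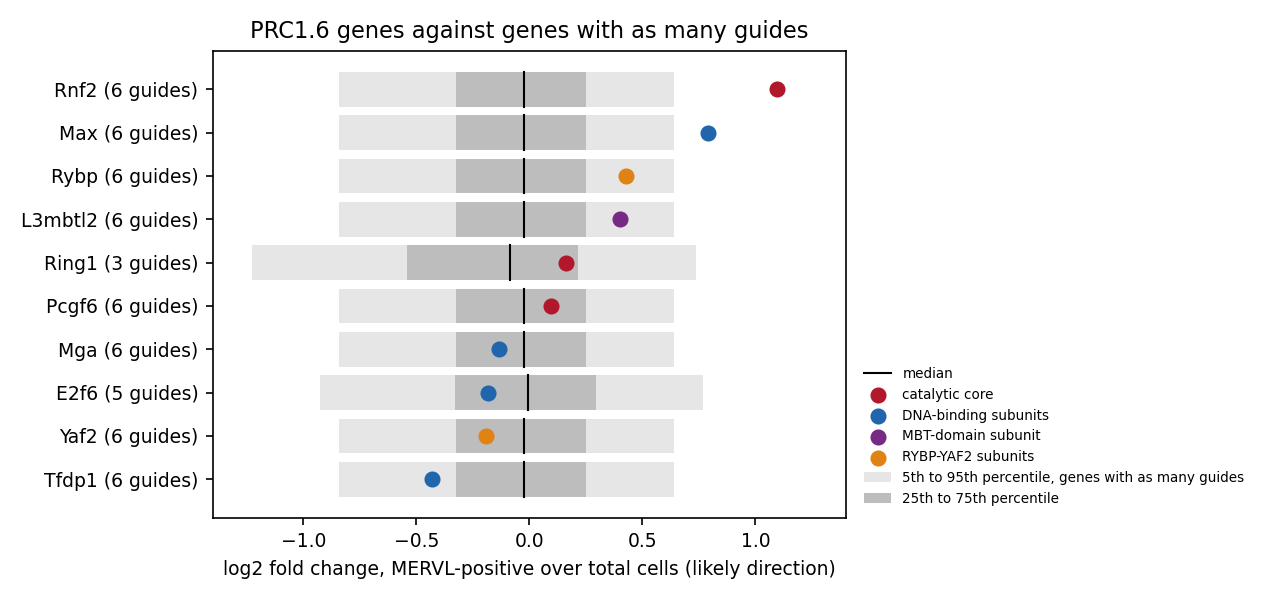
Log2 fold change of each PRC1.6 gene (points, coloured by role in the complex) over the spread of all genes with the same number of guides (light bars, 5th to 95th percentile; dark bars, 25th to 75th; black line, median). Rnf2 at 1.10 and Max at 0.79 lie beyond the 95th percentile of 0.64 for genes with 6 guides, and the other 8 genes lie inside their bars.

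The guides of each gene were also counted by the authors as past a threshold for positive change, called up here, or for negative change, called down. The threshold is loose, since 37.4% of the guides of all genes were up and 38.0% down. Of the 56 guides against the complex, 25 were up, or 44.6% (exact 95% binomial interval 31.3 to 58.5), and 19 were down, or 33.9% (21.8 to 47.8). Both intervals hold the share of all genes, so a difference in guide shares was not detectable with this number of guides. The intervals cover counting error only and take guides as independent, and guides to 1 gene share their target.

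**Figure D2:**
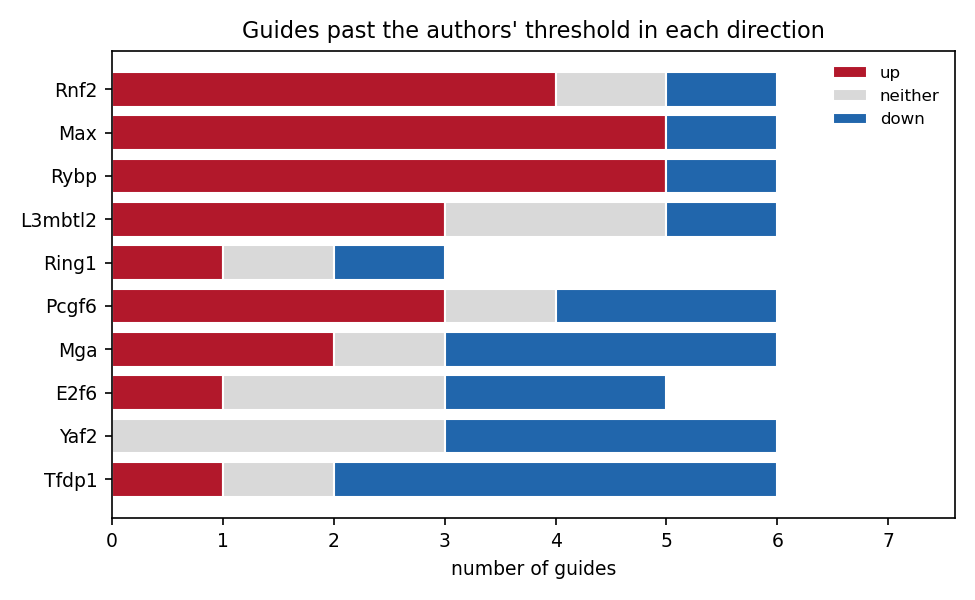
Number of guides up, down or past neither threshold for each PRC1.6 gene, in the order of log2 fold change. Max and Rybp have 5 guides up and 1 down, while Yaf2 has none up and 3 down.

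The position of single guides in the ranking can be read in part from the deposited gene scores. If the score is the robust rank aggregation score of MAGeCK, which the file headers do not state, the score of a gene with 1 guide past the threshold gives that guide's exact position among all ranked guides. With more guides past it, the score gives only how far out each could be. This reading was checked over all genes. In all 4811 genes with 1 guide up and all 4683 with 1 guide down, the position so computed fell inside the threshold. The scores of all 18878 genes with any guide up, and all 18914 with any guide down, were at or under the ceiling that their number of guides allows. These counts include the genes with 1 guide past the threshold, and the threshold was read from the same deposited values. The ceiling is an upper limit only, so it does not check the positions read for genes with more guides past the threshold.

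The catalytic core consists of the ubiquitin ligases RNF2 (RING1B) and RING1 (RING1A), which are alternative subunits shared by every PRC1 complex, and PCGF6, the partner that defines PRC1.6. All 3 of these genes were above 0 in the authors' deposited table, as were 48% of all genes. By log2 fold change, Pcgf6 stood at percentile 61.2 of all genes and Ring1 at percentile 67.0. Rnf2 is on chromosome 1 from 151469398 to 151500991 (GRCm38.p6, the coordinates of mm10). In the authors' deposited table its log2 fold change was 1.10, and 4 of its 6 guides were up, 1 down and 1 past neither threshold. The authors' deposited table gives it an enrichment p of 0.00165 (FDR 0.827) and a depletion p of 0.651. Rnf2 was thus the member farthest from the bulk of genes. Of the 16270 genes with 6 guides, 58, or 0.356%, had a value as high. Of the 1893 genes with exactly 4 of 6 guides up, 4, Rnf2 included, had an enrichment p as low. The Rnf2 score would be given by 1 guide at the top 0.00513% of all ranked guides, by 2 guides within 0.456%, by 3 within 2.54% or by all 4 within 6.93%. At least 1 of these readings holds, and in none of them could the guides stand further out. The 1 guide that went down stood at 9.35% from the other end.

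Ring1, on chromosome 17 from 34020792 to 34024680, had 3 guides in the table, 1 up, 1 down and 1 past neither threshold. The authors' deposited table lists it at 0.16, with an enrichment p of 0.659 and a depletion p of 0.669. Its 1 guide up stood at 29.3% from the top and its 1 guide down at 30.0% from the bottom, both near the threshold. Genes with 3 guides spread more widely, with a standard deviation of 0.64 over 132 genes against 0.46 over genes with 6 guides. The values of Rnf2 and Ring1 differ by 0.94, and without values per library this difference could not be tested.

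Pcgf6, on chromosome 19 from 47033617 to 47050939, is listed in the authors' deposited table at 0.096, and 3 of its 6 guides were up and 2 down. The authors' deposited table gives it an enrichment p of 0.346 and a depletion p of 0.297. An enrichment p as low was held by 34.3% of all genes, and a depletion p as low by 29.9%. The related PCGF proteins pair with RNF2 or RING1 in other PRC1 complexes. In the authors' deposited table their genes were all below 0, with -0.016 for Pcgf5, -0.053 for Bmi1, -0.14 for Pcgf1, -0.23 for Pcgf3 and -0.49 for Pcgf2. Of all genes, 48% were above 0 and the median was -0.021, so Pcgf5 and Bmi1 lay near the middle of all genes. None of the 6 Pcgf genes had an unadjusted p under 0.05 in either direction.

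RYBP and YAF2 are related proteins that occupy the same place beside the RING ligase and stimulate its activity in variant PRC1 complexes. Rybp, on chromosome 6 from 100228565 to 100287358, is listed in the authors' deposited table at 0.43, and 5 of its 6 guides were up and 1 down. The enrichment p that the authors' deposited table gives, 0.0857, did not pass 0.05. As many guides up were found in 2.91% of genes with 6 guides, but of the 439 genes with exactly 5 up, only 16.9% had a higher enrichment p. The least extreme of its 5 guides up stood no further out than 35.6% from the top, just inside the threshold. Its score was 0.795 of the highest that 5 guides up can have, against 0.138 for Max, where a small share means a stronger score. Yaf2, on chromosome 15 from 93283833 to 93336935, is listed in the authors' deposited table at -0.19, and none of its 6 guides was up while 3 were down. Its most positive guide stood at 40.6% from the top, just outside the threshold. The paralogs differ by 0.62, which could not be tested.

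**Figure D3:**
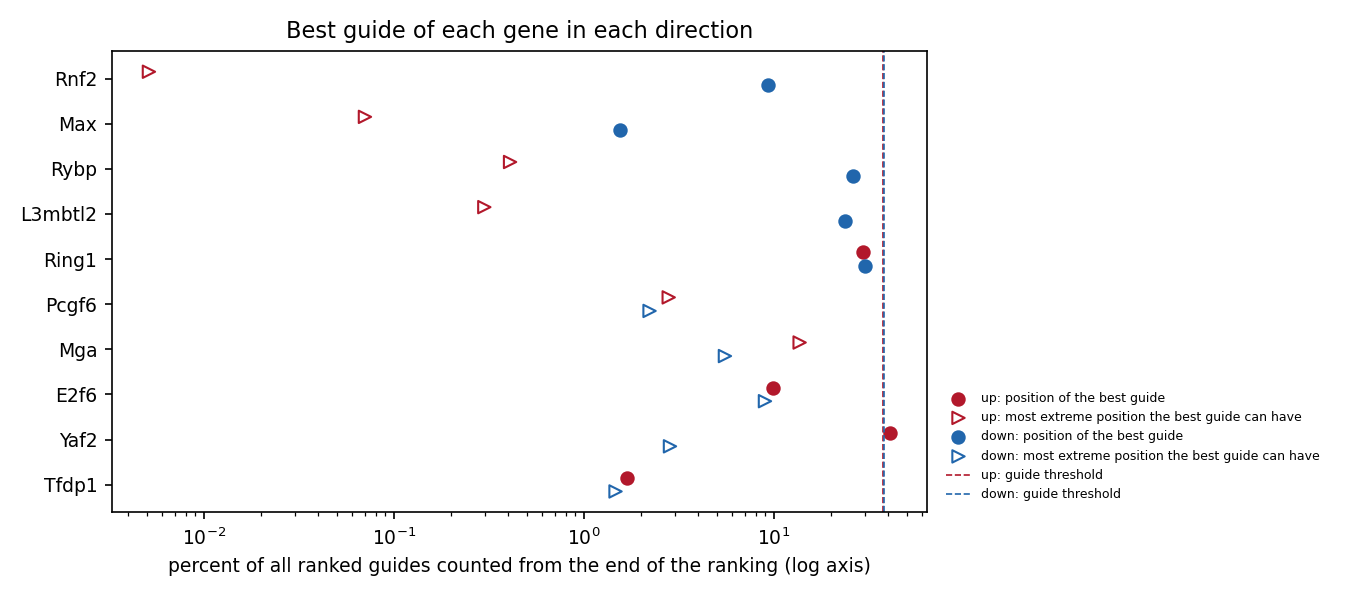
Position of the best guide of each PRC1.6 gene from the positive end (red) and the negative end (blue) of the ranking of all guides, in percent on a log axis. Filled circles are exact positions, for genes with at most 1 guide past the threshold; open triangles give the most extreme position the best guide can have. Max and Tfdp1 each have 1 guide against the trend of the others, at 1.56% and 1.68%.

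The DNA-binding subunits were divided. MAX is the small helix-loop-helix protein that pairs with MGA in PRC1.6 and with MYC and other proteins elsewhere. Max, on chromosome 12 from 76937269 to 76962323, is listed in the authors' deposited table at 0.79, and 5 of its 6 guides were up and 1 down. The authors' deposited table gives it an enrichment p of 0.019 (FDR 0.985). A value as high was held by 363 of the genes with 6 guides, or 2.23%. The 1 guide that went down was far out, at 1.56% from the bottom of the ranking, and the authors' deposited table gives the gene a depletion p of 0.229. Guides against Max therefore did not all move one way.

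MGA is the large scaffold that holds both a T-box and a helix-loop-helix domain. Mga, on chromosome 2 from 119872503 to 119970129, is listed in the authors' deposited table at -0.14, with p-values of 0.736 for enrichment and 0.499 for depletion, and 2 of its 6 guides were up and 3 down. Mga stood between the 25th and 75th percentile of genes with 6 guides, -0.32 and 0.25, and lay 0.92 below its partner Max. E2F6 is an E2F protein without a transactivation domain. E2f6, on chromosome 12 from 16810909 to 16826752, had 5 guides, of which 1 was up and 2 were down, and the authors' deposited table lists it at -0.18. The p-values in the authors' deposited table were 0.579 for enrichment and 0.556 for depletion.

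TFDP1 (DP1) is the dimer partner of E2F proteins, in PRC1.6 and in the E2F complexes of the cell cycle. Tfdp1, on chromosome 8 from 13338725 to 13378448, had the lowest value of the complex, -0.43 in the authors' deposited table, and 4 of its 6 guides were down and 1 up. The depletion p of 0.219 and the enrichment p of 0.243 given for it by the authors' deposited table were nearly equal, although 4 guides went down. The 1 guide up stood at 1.68% from the top, while the least extreme of the 4 guides down could stand no further out than 31.7% from the bottom. The related gene Tfdp2 is listed in the authors' deposited table at 0.54, and 5 of its 6 guides were up and none down. The authors' deposited table gives it an enrichment p of 0.0423 (FDR 0.985). The difference between the paralogs, -0.97, could not be tested.

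L3MBTL2 carries MBT domains, which bind methylated histone tails in related proteins, and is found in PRC1.6 and not in the canonical complex. L3mbtl2, on chromosome 15 from 81663889 to 81688315, is listed in the authors' deposited table at 0.40, and 3 of its 6 guides were up, 1 down and 2 past neither threshold. The enrichment p that the authors' deposited table gives, 0.0652, did not pass 0.05. Among the 4170 genes with exactly 3 of 6 guides up, 93.6% had a higher enrichment p. Its score was thus stronger than is usual for that number, and its guide down stood at 23.7% from the bottom. The same share was 81.1% for Max among genes with 5 of 6 guides up. For Tfdp1, the lowest member by fold change, it was 95.3% among genes with 1 of 6 up. A high share therefore did not always go with a high fold change.

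**Figure D4:**
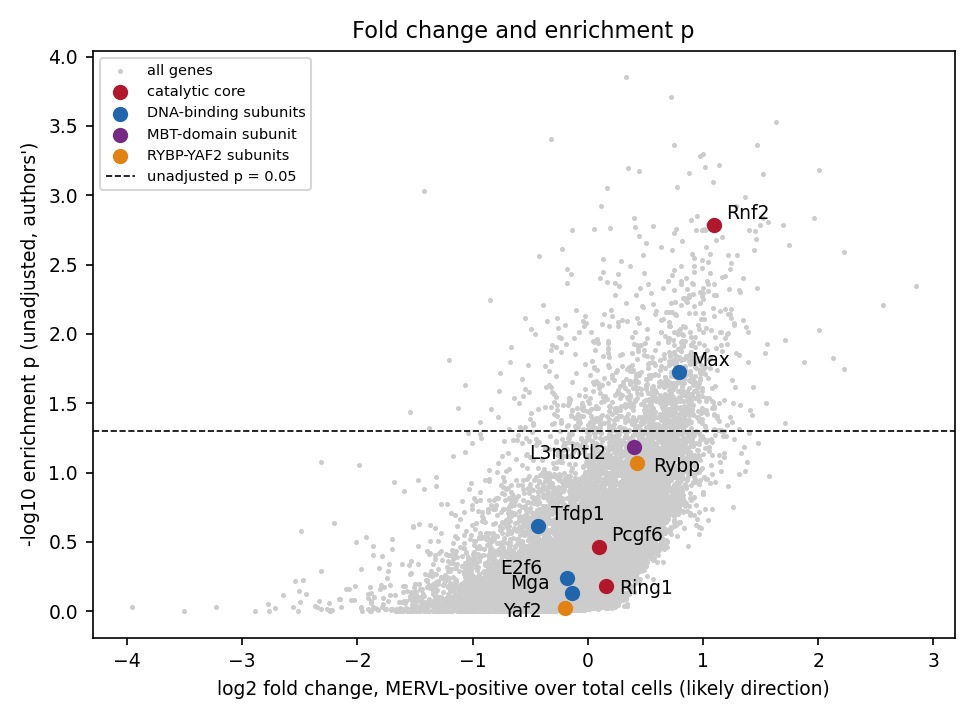
Log2 fold change against the -log10 of the unadjusted enrichment p in the authors' deposited table, for all genes (grey) and the PRC1.6 genes (coloured by role). Rnf2 and Max lie above the dashed line, the threshold of 0.05, and L3mbtl2 and Rybp lie just below it.

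The order by log2 fold change ran from Rnf2 through Max, Rybp, L3mbtl2, Ring1, Pcgf6, Mga, E2f6 and Yaf2 to Tfdp1. The order by enrichment p differed, and ran from Rnf2 through Max, L3mbtl2, Rybp, Tfdp1, Pcgf6, E2f6, Ring1 and Mga to Yaf2. With no spread between libraries, no neighbours in either order can be told apart. The 4 subunits shared with other PRC1 complexes, Rnf2, Ring1, Rybp and Yaf2, had a median of 0.29. Of their 21 guides, 10 were up, or 47.6% (exact 95% binomial interval 25.7 to 70.2), and 6 down. The other 6, which give PRC1.6 its own composition or its DNA contacts, had a median of -0.020, where that of all genes was -0.021. Max, at 0.79, is among these 6. Of their 35 guides, 15 were up, or 42.9% (26.3 to 60.6), and 13 down. Both intervals hold the 37.4% of guides up over all genes. This split was not tested. Pcgf6 and Mga, which define the complex, were at 0.096 and -0.14 in the authors' deposited table. Rnf2, the member with the lowest enrichment p, is a subunit of all PRC1 complexes.

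The related lists were counted in the same way, and the shares of all genes that passed, 5.02% for enrichment and 5.07% for depletion, apply to each count. In lists of 6 to 12 genes, counts of 0 or 1 are near these shares, so the genes that passed are named as a description only. Of 12 canonical PRC1 genes, 1 passed an unadjusted enrichment p of 0.05 and none passed for depletion. The gene that passed was Phc2, a Polyhomeotic subunit, which the authors' deposited table lists at 0.91 with 4 of 6 guides up and a p of 0.0162. Of 11 genes of other variant PRC1 complexes, none passed for enrichment and 1 for depletion. This was Kdm2b, which brings the PCGF1 complex to CpG islands, which the authors' deposited table lists at -0.69 with 5 of 6 guides down and a p of 0.0394. The medians of these lists were 0.11 and -0.016, on the log2 scale of the members' 0.13.

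Polycomb complex 2 places the methyl marks on histone H3 that canonical PRC1 binds. Of its 12 genes, 1 passed for depletion and none for enrichment, with a median of 0.012. That gene, Epop, listed as E130012A19Rik, is listed in the authors' deposited table with a depletion p of 0.034 and a log2 fold change of 0.065, so p and fold change point in opposite directions. The 6 genes of H2A deubiquitination, the reaction opposite to that of RNF2, had a median of 0.20 and none passed either way. The 11 other genes of the MAX network, Myc among them, had a median of -0.086 and none passed. Of 8 E2F and DP genes, with a median of -0.022, Tfdp2 passed for enrichment and E2f8, an atypical repressor E2F, for depletion. The authors' deposited table lists E2f8 at -0.54 with a p of 0.00944.

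Proteins reported to associate with PRC1.6 include HP1 proteins, histone deacetylases and the H3K9 methyltransferases EHMT1 and EHMT2. None of the 7 genes of this list passed an unadjusted p of 0.05 in either direction, and their median was 0.018. All 7 are given here, a choice made after their values were seen. Ehmt1 and Ehmt2, partners in 1 enzyme, are listed in the authors' deposited table at 0.56 and 0.60, each with 5 of 6 guides up, and with enrichment p-values of 0.104 and 0.0917. The HP1 genes lay on both sides of 0, with Cbx1 listed in the authors' deposited table at 0.48 (4 guides up, none down) and Cbx3 at -1.44 (none up, 5 down). The deacetylase gene Hdac1 is listed in the authors' deposited table at -0.70 (none up, 4 down) and Hdac2 at 0.018 (3 up, 3 down). Wdr5, encoding an adaptor of histone methyltransferase complexes, is listed in the authors' deposited table at -0.16 (none up, 2 down). No gene in these 7 lists had an FDR under 0.05 in the authors' deposited table, and E2f8 had the lowest, 0.861.

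**Figure D5:**
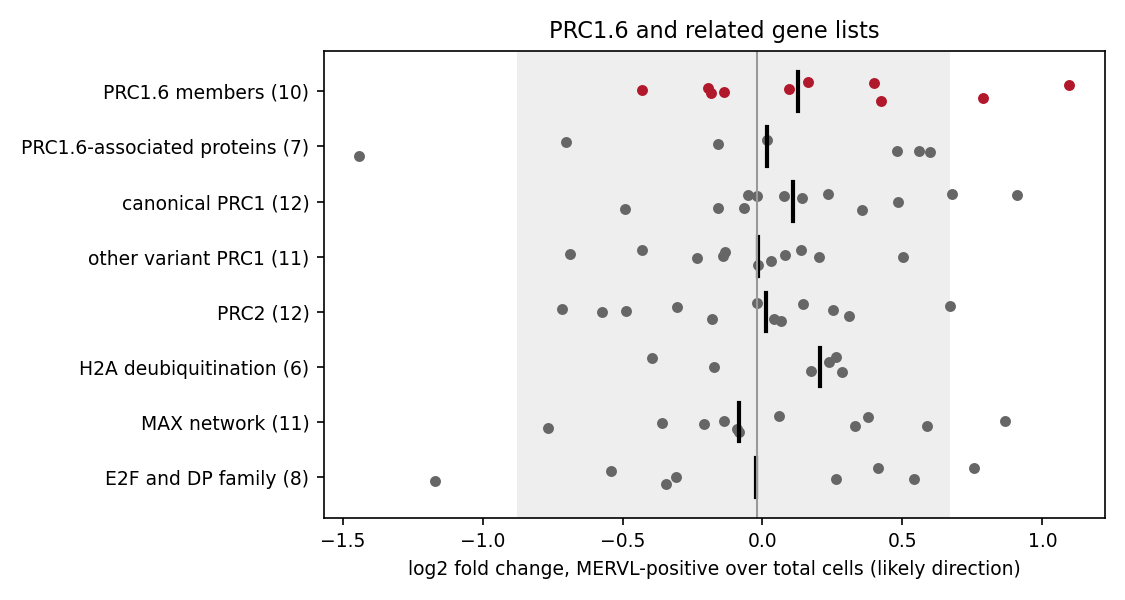
Log2 fold change of the 10 PRC1.6 genes (red) and of 7 related gene lists (grey points, number of genes in brackets), with the median of each list (black bar). The shaded band spans the 5th to 95th percentile of all genes, -0.87 to 0.66, and the grey line marks their median. Rnf2 and Max lie to the right of the band. Genes of the other lists also lie outside it, such as Phc2 at 0.91 to the right and Cbx3 at -1.44 to the left.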

How the data were processed

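The authors deposited 1 table of 22510 entries, of which 20380 are genes, 1132 microRNAs and 998 non-targeting guides by their names. The authors deposited, per the file headers, a log2 fold change per gene, with a score, p-value, false discovery rate, rank and number of guides past a threshold for each direction. MAGeCK and mm10 are named per the submitters' processing notes. Its version and settings, the normalization and the treatment group were not given in the sources used here. A log base of 2 is MAGeCK's and is not written in the header. Depth per library is unknown. The 2 libraries of each group are titled sequencing repeats, so they may differ by technical spread alone. Under the reading of the score used here, a gene's p-value rests on the ranks of its guides. It does not measure spread between libraries or between separate screens. The authors' p-values and rates were kept unchanged and called under 0.05. Python 3.11.15 with SciPy 1.17.1 gave percentiles, exact binomial intervals (95%) and guide positions. The code for guide positions was run on data simulated with the same score formula. That run tests the code only, and not whether the deposited score is of this kind. Guide positions and the comparison without Rnf2 and Max were added after the data were seen. Positions came from RefSeq (GRCm38.p6), where all 10 members matched. The members and the 7 comparison lists (67 genes) were chosen with earlier results of these data known. All members were named, and from the lists the genes with an unadjusted p under 0.05 and the paralogs of Pcgf6 and Tfdp1. Outside this rule, all genes of the list of PRC1.6-associated proteins were named after their values were seen.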

Additional observations from a re-analysis of the deposited data

How the results depend on the processing

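No paired analysis was possible because the table holds 1 comparison and no value per library. For the same reason no library could be left out. The median log2 fold change of the members, 0.13, was 0.20 as a mean, 0.096 without Rnf2, -0.020 over the 6 members not shared with other PRC1 complexes, 0.15 after subtracting the median of all genes, 0.11 after subtracting that of non-targeting guides and, in alternatives added after seeing the data, 0.25 without E2f6 and Ring1 and -0.020 without Rnf2 and Max, the 2 highest members, whose removal by value lowers the median by construction. The sign of the median thus depends on which members are taken. Both values of -0.020 were near the median of all genes, -0.021, and not clearly below it. The number of members past the threshold was 0 in both directions with the deposited rates, with rates recomputed over genes only and at a rate of 0.25. With the unadjusted p it was 2 for enrichment and 0 for depletion. Without Rnf2 the share of guides up was 42.0% and down 36.0%. Ranking by fold change in place of enrichment p moved 7 of 10 members by at least 5 percentage points among all genes, and taking only genes with as many guides moved 0. About 3.84 sorted cells per library guide may limit what could be detected, which was not tested.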
